A study of Mus musculus with 6 samples.

Results

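The genes of the hypoxia response and of glycolysis were examined in neurospheres, which are floating clusters of neural stem cells and progenitors. The neurospheres were grown for 7 days from the subventricular zone, the lining of the lateral ventricles where the adult brain keeps dividing progenitors. A fixed list of 38 mouse genes was looked up among the 45037 probe sets of the array, and 81 probe sets carried the symbol of a listed gene and no other symbol. The list was chosen with earlier results of these data known. These 81 probe sets stood for 35 of the 38 genes. No probe set was listed for Gpi1 or Eno1, and Bnip3l was represented only by 3 probe sets that also carry a second symbol, so these genes have no value here. The list held 6 genes for factors and sensors of the oxygen response, 14 for glycolytic enzymes and 18 for other targets of the hypoxia-inducible factors, of which 6, 12 and 17 had a probe set.

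The arrays came from 3 cultures of Ts1Cje mice and 3 cultures of disomic (C57BL/6) littermates, all female and 84 days old. The study describes them as pairs, but the labels do not name the pairs, so the main tests were unpaired. Ts1Cje mice carry an extra copy of the distal part of mouse chromosome 16 joined to chromosome 12 and are a model of Down syndrome. The extra copy of Sod1 at the edge of the segment is not functional, and the mice had been bred to C57BL/6. No member gene lies on chromosome 16, and 2 members, Hif1a and Egln3, lie on chromosome 12. RNA was amplified through 2 labelling cycles and hybridized to mouse genome arrays, 1 array per culture, and every value below is a log2 intensity of a probe set unless another quantity is named. M stands for the Ts1Cje mean minus the disomic mean, A for the mean over all 6 arrays, and a probe set with A above 5 was counted as expressed. Levels of different probe sets cannot be ranked against each other, since each has its own affinity for its transcript.

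The hypoxia-inducible factors (HIFs) are pairs of an oxygen-labile alpha subunit, encoded by Hif1a or Epas1, and a stable partner encoded by Arnt. In oxygen the EGLN enzymes hydroxylate the alpha subunit and the product of Vhl marks it for breakdown, and in its absence the factor binds DNA and switches on genes for glucose uptake, glycolysis, vessel growth and mitochondrial turnover. Much of this control acts on protein, which the arrays do not measure. Neural stem cells and astrocytes rely strongly on glycolysis, and in the adult brain Epas1 transcripts are found mainly in vascular cells and astrocytes.

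The labelled genotypes and cell type were checked first. Over 80 expressed probe sets of the trisomic segment, every Ts1Cje array had a median deviation from the probe set means of 0.22 to 0.24 and every disomic array one of -0.26 to -0.22. Of 12 measured genes that mark neural stem cells or astrocytes 11 were expressed, whereas none of 9 markers of microglia, 6 of ependymal cells and 3 of red blood cells was. Markers of neurons were expressed for 3 of 10 genes (Gad1, Gad2 and Map2) and those of oligodendrocytes for 6 of 8. Of 10 markers of vascular cells only Acta2 was expressed, and the endothelial genes Pecam1 and Tie1 stood at the lowest value of the arrays, 2.23, in all 6 cultures. The ratio of the 3′ to the 5′ actin control probe set (a difference of log2 values) was 1.67 ± 0.15 (SD, n = 3) in the disomic and 2.02 ± 0.21 (SD, n = 3) in the Ts1Cje cultures, that of Gapdh 2.18 ± 0.10 and 2.34 ± 0.09, and the mean of 3 control probe sets for 18S ribosomal RNA 11.10 ± 0.78 and 12.22 ± 0.22. In each of these 3 measures every Ts1Cje array lay above every disomic array, and their part in the results below was not tested. In a culture, fewer cells of a type and less RNA per cell cannot be told apart.

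Of the 81 member probe sets 53 were expressed, and they stood for 29 genes. The exceptions were the hexokinase Hk2 (A = 4.92), just under the limit, Vegfa, which encodes a growth factor for vessels (A = 3.98), and Ankrd37, Car9, P4ha2 and the lactate exporter Slc16a3, whose brightest probe sets had an A of 2.23 to 2.37. The brightest probe set of Egln3 had an A of 5.11, just over the limit, but read 5.10 on 5 arrays and 5.14 on the other, so that gene counts as expressed without showing a level that varied. A second, dimmer probe set of Egln3 (A = 3.41) read 3.30, 3.35 and 2.52 in the disomic and 4.02, 3.73 and 3.55 in the Ts1Cje cultures.

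Among the expressed member probe sets 2 were higher in Ts1Cje neurospheres with a moderated t above 4 in limma, the limit used in the study, and none was lower with a t below -4. They belong to Epas1, which encodes an alpha subunit of the HIFs, and Pfkm, which encodes a phosphofructokinase subunit. The 2 probe sets are 3.77% of the expressed member probe sets, whereas 0.965% of all 16371 expressed probe sets had a t above 4 and 0.812% a t below -4. No member probe set passed an adjusted p of 0.05 (limma, Benjamini-Hochberg over all probe sets), the adjusted p of every member was 1.0, and 0.00222% of all probe sets passed. At an unadjusted p under 0.05, 4 member probe sets were higher and 2 lower, 11.3% of the expressed members against 6.18% of all expressed probe sets. Every Ts1Cje array lay above every disomic array in 6 member probe sets (11.3%, against 5.53% of all expressed probe sets) and below in 3 (5.66%, against 5.21%). Since the members were chosen with earlier results of these data known, these shares and those below are not an independent test.

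The differences were small and mostly of one sign. Of the 53 expressed member probe sets 39 had an M above 0 (73.6%, against 51.6% of all expressed probe sets), and their median M was 0.12, against 0.01 for all expressed probe sets. Taking the brightest probe set of each gene, M was above 0 in 21 of 29 genes with a median of 0.11, whereas the median was 0.02 for all expressed genes, of which 53.9% lay above 0. These shares, too, describe a list chosen with earlier results of these data known. The 95% interval of M held 0 for 25 of the 29 genes, and the exceptions were Epas1, Vhl and Pfkm above 0 and Adm below.

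**Figure D1:**
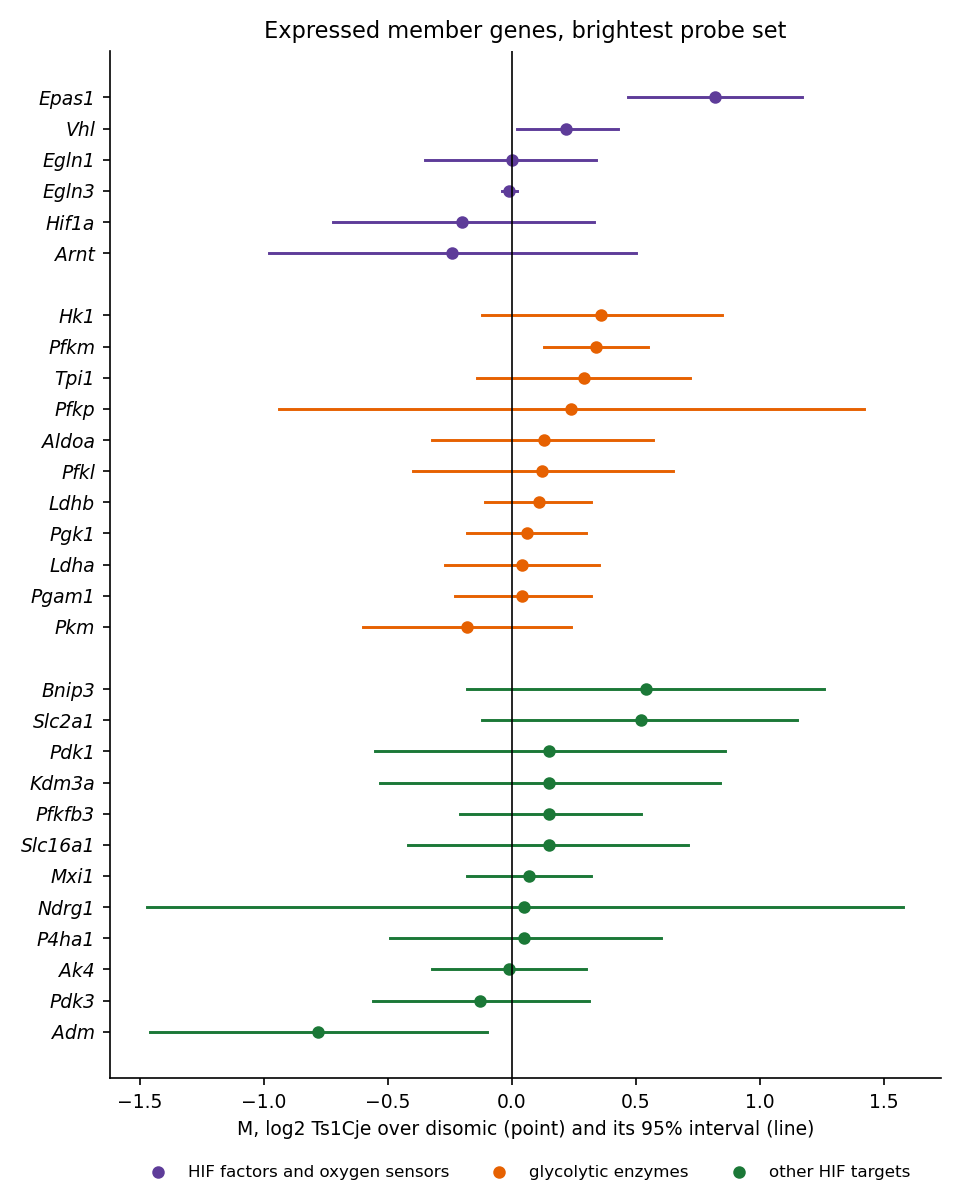
M with its 95% interval from limma for the 29 expressed member genes, each by its brightest probe set, grouped by role (x axis: log2 Ts1Cje over disomic). The intervals of Epas1, Vhl and Pfkm lie above 0 and that of Adm below, and 10 of 11 glycolytic enzymes have a point above 0.

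**Figure D2:**
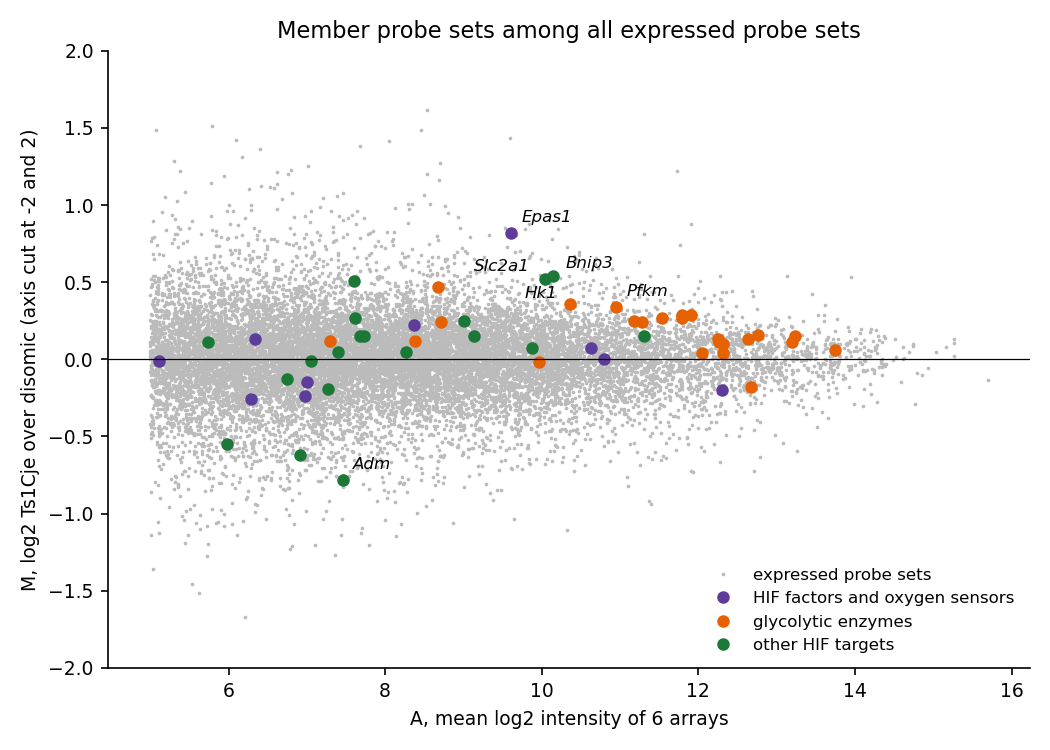
M against A for all 16371 expressed probe sets (grey) and the 53 expressed member probe sets (coloured by role), both axes in log2 units, with 4 probe sets beyond the limits of the M axis. Epas1 and Adm lie at the upper and lower edge of the members, while the glycolytic enzymes are mostly bright and lie close above 0.

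The factors and sensors of the oxygen response did not move together. Epas1 read 9.20, 9.03 and 9.36 in the disomic and 10.02, 9.85 and 10.19 in the Ts1Cje cultures. The groups were well apart, with a spread of 0.17 (SD, n = 3) in each, and M was 0.82 ± 0.13 (SE), a fold of 1.77 with a 95% interval of M from 0.47 to 1.17 and a moderated t of 6.33. Leaving out each array in turn gave an M of 0.74 to 0.91 and a t of 4.96 to 6.91. The other probe set of Epas1 was near the lowest value, with an A of 2.26, and adds nothing. Beside it, the summed linear intensity of the markers of neural stem cells and astrocytes was 72000 to 86700 in the disomic and 80300 to 87100 in the Ts1Cje cultures, with overlapping ranges, whereas among these markers the water channel gene Aqp4 alone had groups that did not overlap (10.65, 11.26 and 10.78 in the disomic, 11.41, 11.77 and 11.95 in the Ts1Cje cultures, M = 0.81). That sum is weighted to the brightest markers, Fabp7 (A = 14.62) and Vim (A = 14.12), so its overlap says little about dimmer ones. Gfap, not counted as expressed (A = 4.87), read 5.42, 5.72 and 3.61 in the disomic and 2.37, 5.75 and 6.36 in the Ts1Cje cultures. The summed markers of vascular cells were 205 to 306 in the disomic and 133 to 548 in the Ts1Cje cultures, with 7 of 10 below 2.5 on every array. The part of Aqp4 or of other markers in the result for Epas1 was not tested.

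Hif1a, which encodes the other alpha subunit, read 12.29, 12.56 and 12.36 in the disomic and 12.49, 12.28 and 11.85 in the Ts1Cje cultures. These values overlapped, and the low mean came from Ts1Cje replicate 3, so M was -0.20 ± 0.20 (SE) with an interval from -0.72 to 0.33. The other expressed probe sets of Hif1a had an M of 0.07 and -0.15. Within each array, the log2 ratio of Epas1 to Hif1a was -3.09, -3.53 and -3.00 in the disomic and -2.47, -2.42 and -1.66 in the Ts1Cje cultures, a difference of 1.02 ± 0.31 (SE). The groups did not overlap, but the two-sided exact permutation test gave p = 0.1, the smallest that 3 against 3 arrays allow, and 0.5 after adjustment over 5 such pairs. The ratio joins probe sets of unequal affinity, so only its difference between the genotypes can be read.

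Arnt, the shared partner of the alpha subunits, had an M of -0.24 ± 0.27 (SE) with its brightest probe set. A dimmer one read 6.55, 6.46 and 6.26 in the disomic and 6.24, 6.23 and 6.03 in the Ts1Cje cultures, so every Ts1Cje array lay below, by a mean of only 0.26 with a t of -2.39. Vhl, the recognition subunit of the ligase that marks the alpha subunits for breakdown, read 8.35, 8.30 and 8.11 in the disomic and 8.43, 8.47 and 8.53 in the Ts1Cje cultures. The groups were apart, with an M of 0.22 ± 0.08 (SE) and a t of 2.93. The other probe set of Vhl, not counted as expressed (A = 3.72), had an M of -0.15. The hydroxylase gene Egln1 was level at 10.80 ± 0.19 and 10.80 ± 0.13 (SD, n = 3 each), and the interval of its M ran from -0.35 to 0.34. Over the 6 genes of this role the median M was -0.01, with 2 above 0 and 4 below. Of the 4 below, Egln1 and Egln3 had an M of 0.00 and -0.01, so their sign carries little.

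**Figure D3:**
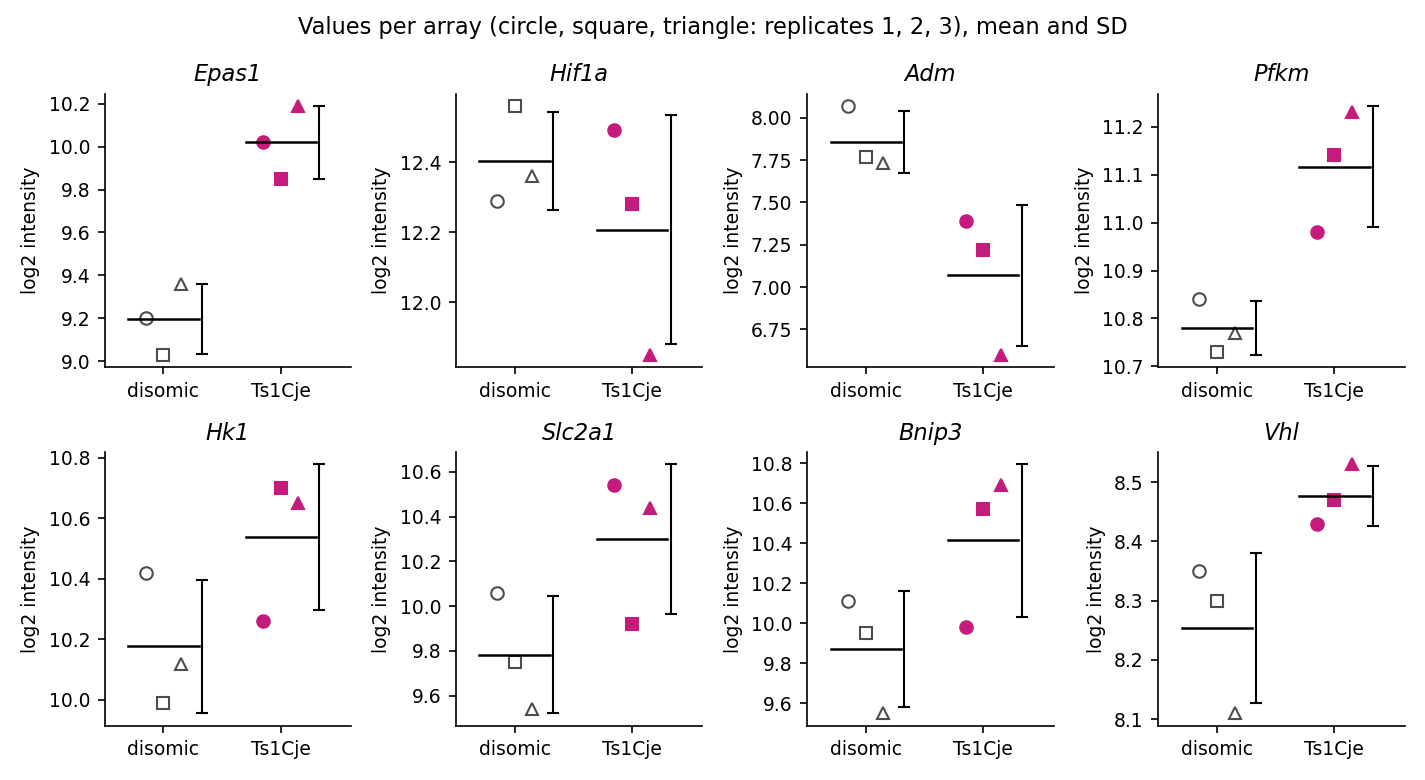
Log2 intensity per array (y axis, scaled to each gene) of the brightest probe set of 8 member genes in disomic (open) and Ts1Cje (filled) cultures, with the symbol giving the replicate, the long line the mean and the bar the SD (n = 3). The groups are apart for Epas1, Adm, Pfkm and Vhl and overlap for Hif1a, Hk1, Slc2a1 and Bnip3.

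Glycolytic enzymes were measured at most steps from glucose to lactate, but not at those of Gpi1 and Eno1, which have no value here. In order of the pathway, Hk1 and Hk2 phosphorylate glucose, Pfkl, Pfkm and Pfkp form phosphofructokinase, Aldoa and Tpi1 split and interconvert the sugar phosphates, Pgk1, Pgam1 and Pkm carry the later steps, and Ldha and Ldhb interconvert pyruvate and lactate. Of the 12 measured genes 11 were expressed, 10 of them had an M above 0, and the median M was 0.12. The number above 0 was 7 without disomic replicate 2 and 8 without disomic replicate 3. With all 6 arrays 1 enzyme passed a t of 4 in limma and none a t of -4.

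That gene was Pfkm, the muscle type subunit, which read 10.84, 10.73 and 10.77 in the disomic and 10.98, 11.14 and 11.23 in the Ts1Cje cultures. Every Ts1Cje array lay above every disomic array, with an M of 0.34 ± 0.08 (SE), an interval from 0.13 to 0.55 and a moderated t of 4.40. The t was no longer above 4 without disomic replicate 2 or 3 or Ts1Cje replicate 2, with M then at 0.31 to 0.33. The liver type subunit Pfkl had an M of 0.12 ± 0.20 (SE) and the platelet type subunit Pfkp 0.24 ± 0.44 (SE), with arrays from 8.20 to 9.35 in the Ts1Cje cultures. The ratio of Pfkm to Pfkl differed between the genotypes by 0.22 ± 0.20 (SE; two-sided exact permutation p = 0.4, adjusted 0.667). That of Pfkm to Pfkp differed by 0.10 ± 0.43 (SE; exact p = 0.9, adjusted 0.9). With 3 against 3 arrays this test cannot give a p below 0.1, so it cannot decide whether the subunits shifted.

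Hk1 read 10.42, 9.99 and 10.12 in the disomic and 10.26, 10.70 and 10.65 in the Ts1Cje cultures with its brightest probe set. Disomic replicate 1 lay above Ts1Cje replicate 1, and M was 0.36 ± 0.18 (SE). A dimmer probe set of Hk1 separated the groups, with 8.58, 8.30 and 8.42 against 8.84, 9.19 and 8.70, an M of 0.47 ± 0.16 (SE) and a t of 2.93. Hk2, whose transcript is a classical HIF target, had an M of -0.37 ± 0.35 (SE) at a level under the limit for expressed. The ratio of Hk1 to Hk2 differed by 0.74 ± 0.44 (SE; two-sided exact permutation p = 0.2, adjusted 0.5).

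Tpi1 read 11.97, 11.46 and 11.51 in the disomic and 11.87, 11.95 and 12.00 in the Ts1Cje cultures, an M of 0.29 ± 0.16 (SE), and its 3 probe sets had an M of 0.27 to 0.29. In Tpi1 the Ts1Cje arrays lay together and disomic replicate 1 lay with them. Aldoa had an M of 0.13 with its brightest probe set, and its 5 probe sets had an M of -0.02 to 0.29. Pgk1 had an M of 0.06 ± 0.09 (SE), Pgam1 0.04 ± 0.10 and Ldha 0.04 ± 0.11 by their brightest probe sets, whose intervals reached at most 0.35. The dimmer probe sets of Pgk1 had an M of 0.15 and 0.13, with intervals up to 0.88 and 0.43. Ldhb had an M of 0.11 ± 0.08 (SE) and 0.10 to 0.16 over its 4 probe sets, and the ratio of Ldhb to Ldha differed by 0.07 ± 0.15 (SE; two-sided exact permutation p = 0.9, adjusted 0.9). Pkm, which encodes the pyruvate kinase of most tissues, was the only expressed glycolytic enzyme whose brightest probe set had an M below 0 over all 6 arrays, at -0.18 ± 0.16 (SE), with 13.01, 12.48 and 12.79 in the disomic and 12.49, 12.67 and 12.59 in the Ts1Cje cultures. Gapdh, the enzyme between Tpi1 and Pgk1, is read by the control probe sets, and its 3′ probe set gave 13.84 ± 0.21 and 13.97 ± 0.05 (SD, n = 3 each). Several of these genes have near-identical copies in the genome, and the brightest probe sets of Aldoa and Tpi1 end in _x_at, which marks probes that can match transcripts of other genes, so their values may not belong to a single gene. Another 5 of the 11 end in _a_at, which marks alternative transcripts of one gene.

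Cultures of one genotype differed among themselves by more than the median difference between the genotypes. As the median deviation from the gene means over the 11 expressed glycolytic enzymes, the disomic arrays gave 0.18, -0.19 and -0.11 and the Ts1Cje arrays -0.02, 0.10 and 0.20. Disomic replicate 1 was thus close to the highest Ts1Cje array, and it was the highest of all 6 arrays for 6 of the 11 enzymes, while disomic replicate 2 was the lowest for 8. The 3′ Gapdh control probe set read 14.02 on disomic replicate 1, 13.61 on disomic replicate 2 and 14.02 on Ts1Cje replicate 3, its extremes, whereas the 5′ Gapdh probe set was lowest on Ts1Cje replicate 2 (11.50) and had means of 11.66 in the disomic and 11.63 in the Ts1Cje cultures. Without disomic replicate 1 the median M of the glycolytic enzymes was 0.27, and without disomic replicate 2 it was 0.05. The count of member probe sets with a t above 4 then went from 2 to 7 without disomic replicate 1 (13.2%, against 1.56% of all expressed probe sets in that fit), the further ones being 3 of Tpi1, 1 of Pgam1 and 1 of P4ha1. It was 1, or 1.89%, without disomic replicate 2, disomic replicate 3 or Ts1Cje replicate 2, where 1.47%, 2.04% and 1.48% of all expressed probe sets had a t above 4, so that in these fits the members were close to the share of all probe sets. In Tpi1 the M without disomic replicate 1 was 0.45 with a t of 9.21, and in Pgam1 0.15 with a t of 5.11.

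**Figure D4:**
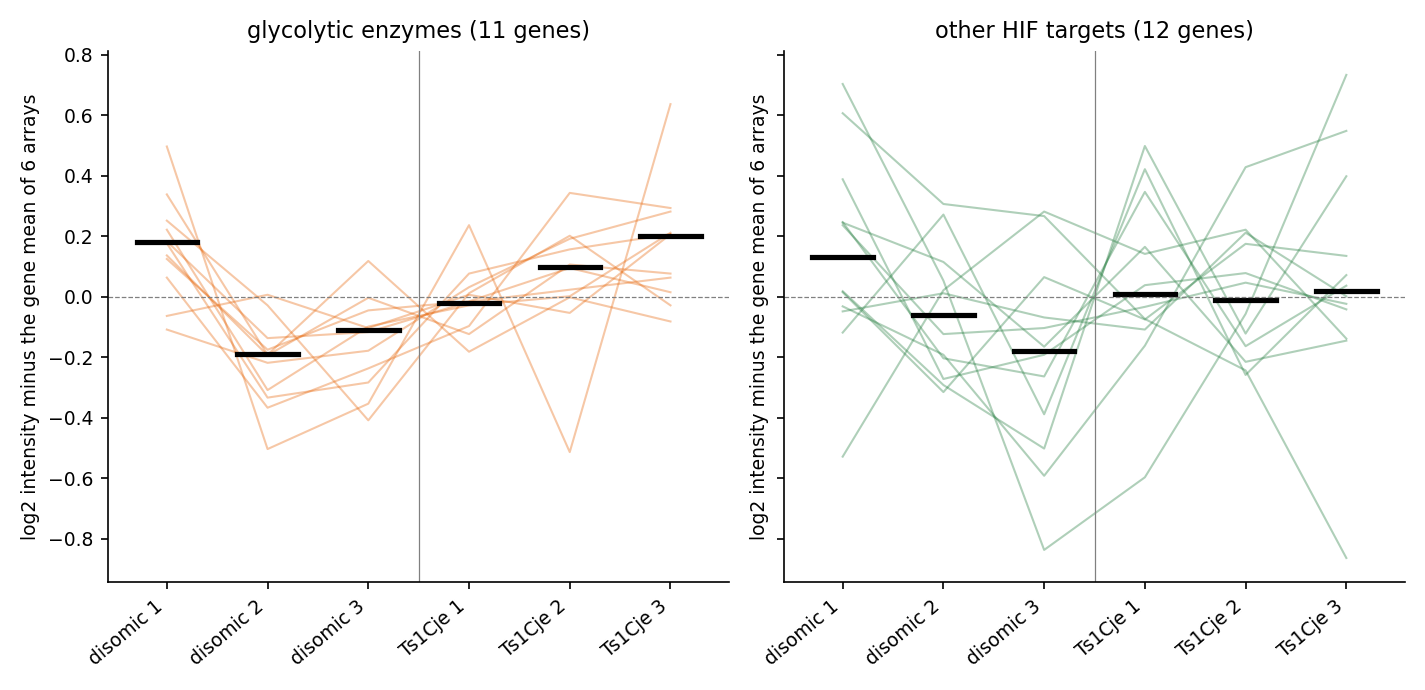
Deviation of each expressed gene from its mean over the 6 arrays (y axis, log2 units; 1 line per gene) on each array, for 11 glycolytic enzymes and 12 other HIF targets, with black bars for the medians. For glycolytic enzymes the medians are 0.18 on disomic replicate 1 and 0.20 on Ts1Cje replicate 3, and -0.19 on disomic replicate 2.

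**Figure D5:**
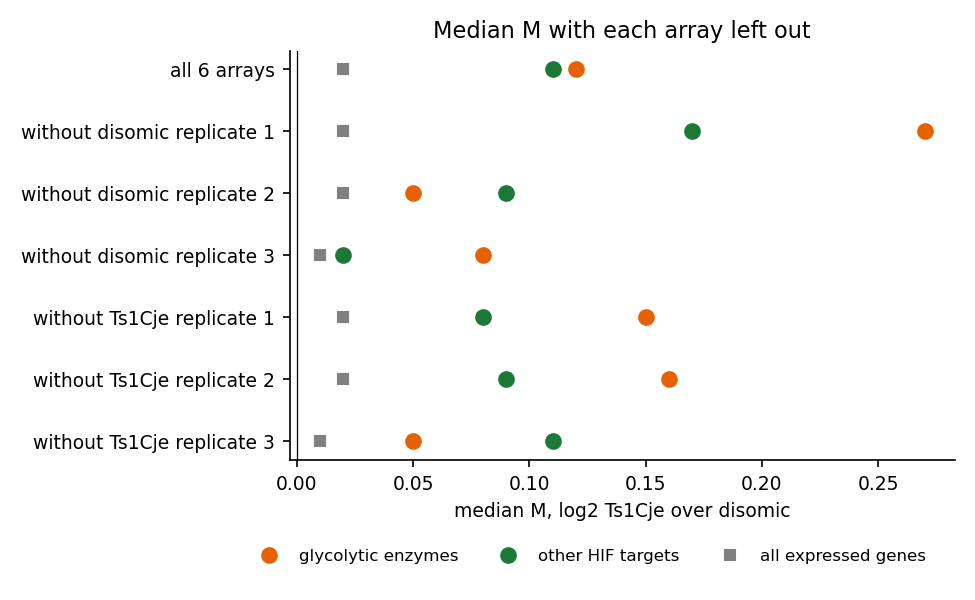
Median M (x axis, log2 Ts1Cje over disomic) of the glycolytic enzymes, the other HIF targets and all expressed genes, with all 6 arrays and with each array left out. The median of glycolytic enzymes runs from 0.05 to 0.27, while that of all expressed genes stays at 0.01 or 0.02.

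The other HIF targets, those that are not enzymes of the glycolytic chain, included the member with the lowest M, Adm, and, after Epas1, those with the highest, Bnip3 and Slc2a1. Of 17 measured genes 12 were expressed, 9 had an M above 0 and 3 below, and the median M was 0.11. None passed a t of 4 in either direction in limma, and at an unadjusted p under 0.05 none was higher and 1, Adm, was lower. Without disomic replicate 3 the number of these genes with an M above 0 was 6 of 12. The deviations were 0.13, -0.06 and -0.18 on the disomic and 0.01, -0.01 and 0.02 on the Ts1Cje arrays, so that the disomic cultures spanned the Ts1Cje cultures.

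Adm encodes adrenomedullin, a secreted vasodilator peptide and one of the most strongly induced HIF targets in many cells. It read 8.07, 7.77 and 7.73 in the disomic and 7.39, 7.22 and 6.60 in the Ts1Cje cultures. Every Ts1Cje array lay below every disomic array, with an M of -0.78 ± 0.25 (SE), a fold of 0.582, an interval from -1.46 to -0.10 and a t of -3.09. A second probe set gave 7.36, 7.11 and 7.18 against 6.88, 6.55 and 6.36, an M of -0.62 ± 0.16 (SE) and a t of -3.77. Both probe sets thus separated the groups in the same direction, and neither passed a t of -4 with all 6 arrays and no block. Without Ts1Cje replicate 1 the t of the second one was -6.64. In that fit 1.89% of the expressed member probe sets and 2.79% of all expressed probe sets had a t below -4.

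Slc2a1, which encodes the glucose transporter of astrocytes and vessels, read 10.06, 9.75 and 9.54 in the disomic and 10.54, 9.92 and 10.44 in the Ts1Cje cultures, an M of 0.52 ± 0.24 (SE). Only Ts1Cje replicate 2 fell among the disomic arrays, and the 2 dimmer probe sets had an M of 0.25 and 0.27. Bnip3, which directs mitochondria to autophagy, read 10.11, 9.95 and 9.55 against 9.98, 10.57 and 10.69, an M of 0.54 ± 0.27 (SE). Here Ts1Cje replicate 1 lay among the disomic arrays.

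Pdk1 encodes a kinase that holds pyruvate dehydrogenase inactive. Its brightest probe set had an M of 0.15 ± 0.26 (SE), but both dimmer expressed ones separated the groups, one with 7.50, 7.50 and 7.03 against 7.91, 8.03 and 7.62 (M = 0.51, t = 2.65) and one with an M of 0.11 (t = 2.08). Pdk3, of the same family, had an M of -0.13 ± 0.16 (SE). Pfkfb3, which makes the activator of phosphofructokinase, had an M of 0.15 ± 0.14 (SE), and Slc16a1, a transporter of lactate, 0.15 ± 0.21. The histone demethylase gene Kdm3a had an M of 0.15 ± 0.25 (SE), the MYC antagonist gene Mxi1 0.07 ± 0.09 and P4ha1, for a collagen prolyl hydroxylase, 0.05 ± 0.20. The adenylate kinase gene Ak4 was level with its brightest probe set (M = -0.01), whereas a dimmer one had an M of -0.55 ± 0.49 (SE).

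Ndrg1, a growth arrest gene induced by hypoxia, varied most between cultures of one genotype. It read 8.10, 7.45 and 6.56 in the disomic and 6.80, 7.34 and 8.13 in the Ts1Cje cultures, a spread of 0.77 and 0.67 (SD, n = 3 each). Each genotype thus held a high and a low culture, and the interval of its M, from -1.47 to 1.58, sets no useful limit. Where a member gene had several expressed probe sets, which held for 14 genes, the sign of M was shared by all of them for 10 and differed among them for 4.

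The promoters of the members were read beside these values, since the HIFs bind a short DNA word, ACGTG or GCGTG, the core of the hypoxia response element. In the RefSeq promoters used here (assembly GRCm38.p6, 250 bases before to 50 after each start), 55 promoters of 35 of the 38 listed genes were found, and Epas1 was not among them. The core, in either spelling and on either strand, occurred in 43 of the 55 (78.2%) and in 43.8% of all 32851 promoters. The spelling ACGTG alone occurred in 50.9% and 19.6%, and CACGTG, the E-box of other factors which contains ACGTG on both strands, in 12.7% and 7.15%. Glycolytic enzymes had the core in 18 of 24 promoters and the other HIF targets in 21 of 26. The members were listed for their part in the HIF response or glycolysis, and some promoters of one gene, such as Ak4, overlap and share matches. The share over all promoters was not matched to the members for base composition, so the contrast is a description. A match describes the letters and is no evidence that a factor binds there. As examples, the 150 bases before the start are given with the core on either strand in capitals. They are those of the member with the lowest M, of a glycolytic gene past a t of 4, and of Bnip3 and Ldha, whose promoters hold several copies. The positions are chr7:110627507-110627656 on the plus strand for Adm, chr15:98092439-98092588 on the plus strand for the first of 4 listed promoters of Pfkm, chr7:138909507-138909656 on the minus strand for Bnip3 and chr7:46845654-46845803 on the plus strand for the first promoter of Ldha, each printed 5′ to 3′ along its gene.
Adm: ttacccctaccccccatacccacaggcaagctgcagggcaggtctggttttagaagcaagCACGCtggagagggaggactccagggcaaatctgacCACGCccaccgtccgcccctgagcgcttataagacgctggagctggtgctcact
Pfkm: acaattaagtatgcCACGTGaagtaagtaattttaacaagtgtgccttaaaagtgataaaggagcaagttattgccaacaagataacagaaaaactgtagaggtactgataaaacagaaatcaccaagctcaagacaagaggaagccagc
Bnip3: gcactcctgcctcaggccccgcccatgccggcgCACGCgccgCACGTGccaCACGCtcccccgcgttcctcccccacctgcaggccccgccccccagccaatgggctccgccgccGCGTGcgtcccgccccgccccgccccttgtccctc
Ldha: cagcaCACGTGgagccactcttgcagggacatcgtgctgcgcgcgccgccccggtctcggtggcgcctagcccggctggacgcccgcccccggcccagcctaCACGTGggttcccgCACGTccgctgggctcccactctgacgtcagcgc
Counted on both strands, Adm holds 2 matches within these 150 bases and Pfkm 2 that overlap in a single CACGTG. Bnip3 and Ldha hold 5 each, in which every CACGTG likewise counts as 2. The M of Adm, Pfkm, Bnip3 and Ldha was -0.78, 0.34, 0.54 and 0.04. The 4 listed promoters of Pfkm hold 2, 1, 0 and 0 matches in the 150 bases, so the printed one holds the most. The other listed promoter of Ldha holds 1. The promoter of Tpi1 holds no match. These examples were chosen, do not show the range over the members and describe no more than themselves.

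Further genes of the same pathways were read from lists of HIF regulators, further glycolysis and glucose use, and further HIF targets, 74 genes in all. Of these 68 had a probe set and 51 were expressed, 38 had an M above 0, and the median M was 0.11. One had a t above 4 in limma and none a t below -4, a share of 1.96% that is close to the 1.82% of all 8947 expressed genes past a t of 4 in either direction. At an unadjusted p under 0.05, 4 were higher and 1 lower, 9.80% against 6.61% of all expressed genes. The gene past the limit was Pgm1, for the phosphoglucomutase that links glycogen to glycolysis, with 8.90, 8.81 and 8.83 in the disomic and 9.07, 9.16 and 9.20 in the Ts1Cje cultures, an M of 0.30 ± 0.04 (SE) and a t of 6.85. The groups were narrow and apart, at a fold of 1.23.

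Among the HIF regulators 10 of 12 were expressed and 9 had an M above 0. Arnt2, the neural relative of Arnt, read 9.63, 9.71 and 10.00 in the disomic and 10.09, 10.30 and 10.08 in the Ts1Cje cultures, an M of 0.38 ± 0.13 (SE) with a t of 2.98. The groups were just apart, in the opposite direction to the dimmer probe set of Arnt. Os9 had an M of 0.18 and Elob, a partner of Vhl in the ligase, 0.32, both with overlapping groups.

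Of the further genes of glucose use 16 of 23 were expressed. Mpc1, part of the mitochondrial carrier of pyruvate, had an M of 0.21 ± 0.07 (SE) and groups that were apart, and Bpgm, which diverts a glycolytic intermediate, had an M of -0.36 ± 0.16 (SE) with every Ts1Cje array below. Of the further HIF targets 25 of 33 were expressed, 17 with an M above 0. Ddit4, an inhibitor of mTORC1 signalling that responds to hypoxia and to several other stresses, read 8.68, 7.54 and 7.97 in the disomic and 9.39, 8.96 and 9.67 in the Ts1Cje cultures, an M of 1.27 ± 0.38 (SE) with a t of 3.39. The groups were apart, although the spread within the disomic cultures was 0.58 (SD, n = 3). Hmox1, the heme oxygenase induced by several stresses, had an M of 1.12 ± 0.47 (SE), and Wsb1, for a ubiquitin ligase subunit, -0.39 ± 0.13 (SE), again with groups that did not overlap.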

How the data were processed

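The authors made the deposited log2 intensities with gcRMA, which corrects background by probe base composition, normalizes between arrays and summarizes probe sets; its version is not given in the sources used here, and values at the lowest level carry no order. Because gcRMA pulls dim probe sets to a common low value, small differences there are compressed. All 6 arrays were used, grouped by their labels, and 0 columns were left out. Gene names came from the platform annotation where a probe set has a single symbol.

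Genotype was the only term of a linear model fitted to all 45037 probe sets except controls (limma 3.58.1, R 4.3.3, empirical Bayes, two-sided, Benjamini-Hochberg over all). The prior degrees of freedom were 0.336, so each probe set was judged almost wholly by its own spread, and 3 arrays per genotype limit the precision. Of the fitted probe sets 13404 had the same value on all arrays. They were kept in the fit and in the adjustment of p, and their effect on the prior and on the adjusted p was not tested. P-values measure the spread between these cultures, 1 array each. Ratios of paralogues were compared by exact permutation. A gene was represented by its brightest probe set. All members were described, with further probe sets whose t passed 4 or whose groups were apart, and of the pathway lists every expressed gene past a t of 4, otherwise up to 3 with the largest t. Mpc1, Bpgm and Aqp4 were named after their values were seen. The members and lists were chosen with earlier results of these data known. The steps were tested on simulated data. As alternatives, the fit was repeated with a block for the replicate number, without each array, and with cyclic loess, array weights, an intensity trend and other limits or probe set choices. Tables and figures were made with Python 3.11.15, pandas 2.3.3 and matplotlib 3.10.9.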

Additional observations from a re-analysis of the deposited data

How the results depend on the processing

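The study describes 3 pairs of littermates, but the labels do not say that a replicate number marks a litter or a day. Same-numbered arrays did not deviate together (r = -0.17, -0.033 and 0.13 over expressed probe sets), nor did every array correlate best with its own number. With 3 arrays per genotype that check cannot show that the numbers are not pairs. They were not taken as pairs, so the fit with all 6 arrays and no block leaves any pairing out. With the replicate block, 3 member probe sets were higher and 3 lower past a moderated t of 4, and 4 of 51 expressed pathway genes were higher. The member probe sets were those of Epas1 and 2 of Pdk1 on the higher side, and both of Adm (t = -4.82 and -6.47) and the dimmer one of Arnt (t = -10.4) on the lower, while Pfkm had a t of 3.69. Epas1 then had a t of 222 and an adjusted p of 0.0957 (limma, Benjamini-Hochberg over all probe sets). Its same-number differences were 0.82, 0.83 and 0.83, so that t rests on almost no spread between numbers that were not taken as pairs. Under the block the percentages of all expressed probe sets past the same limits went to 3.05 and 3.56. Without each array in turn, 1 to 7 member probe sets were higher and 0 to 1 lower, the highest count without disomic replicate 1 and the 1 lower without Ts1Cje replicate 1. Of all expressed probe sets 1.47% to 2.04% had a t above 4 in these fits and 0.898% to 2.79% a t below -4, the last without Ts1Cje replicate 1. For pathway genes the counts without each array in turn were 1 to 2 higher (2 without disomic replicate 1 or 3 or Ts1Cje replicate 1) and 0 to 1 lower (1 without Ts1Cje replicate 1). The share of all expressed genes was not worked out for the block or these fits. The pathway counts there cannot be set against it. Cyclic loess left 1 member probe set higher, as Pfkm no longer had a t above 4. In limma no member probe set passed the adjusted p under any fit run. The median M ranged from 0.05 to 0.27 for glycolytic enzymes and from 0.02 to 0.17 for other HIF targets over all alternatives, and from -0.07 to 0.11 for the factors and sensors. Epas1 and Pfkm, the genes past a t of 4 with all 6 arrays and no block, did not change sign under any alternative. Under any one alternative at most 5 of the 29 genes did, all short of a t of 4 with all 6 arrays. Pgam1 and P4ha1, past a t of 4 without disomic replicate 1, had an M of -0.01 and -0.07 without disomic replicate 2. The cause of these changes was not tested.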
